A study of Mus musculus with 2 samples.

Results

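Chemokine receptor transcripts were followed across the sorted brain cells of 2 mouse genotypes, taking 6 receptor genes out of the 55450 genes counted: Cx3cr1, Ccr1, Ccr2, Ccrl2, Cxcr2 and Cxcr4. Members were taken by gene symbol, and the set was selected on values of the genotype contrast: Cx3cr1 was lower in the conditional knockout library and carries the Cre driver, and Ccr1 was lower too. Their ratios between the libraries are therefore a description, and they support nothing by themselves. All 6 symbols were found once each in both libraries.

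The cells came from brains of C57BL/6 mice at day 3 of microglial repopulation and were sorted as CD11b high and CD45 low, a gate for microglia. Each genotype gave 1 library. The first, Hk2 fl/fl, carries loxP-flanked alleles of the hexokinase 2 gene. The second, Hk2 cKO, carries in addition Cx3cr1CreER, a tamoxifen-inducible Cre recombinase driven from Cx3cr1. The labels describe 100 µg tamoxifen on each of 2 days, from postnatal day 1 to 2 or at times not given, and name neither the animals per library nor the age. They also leave out how the driver is inserted, how microglia were depleted and whether fl/fl mice received tamoxifen. Only the cKO mice are described with the driver, so an effect of the driver on Cx3cr1 and an effect of losing Hk2 cannot be told apart. With 1 library for each genotype, differences could not be set against replicates, and no test was made. Values in parentheses are exact 95% intervals for counting error alone: Poisson for levels, conditional binomial for ratios and Clopper-Pearson for shares.

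Chemokine receptors are G protein-coupled receptors that signal mainly through Gi proteins to steer cell movement and adhesion. In brain, CX3CR1 on microglia binds fractalkine (CX3CL1) from neurons and is a classic marker of the resting microglial state. CCR1 binds CCL3, CCL5 and related ligands, CCR2 binds CCL2 and draws inflammatory monocytes from blood, CXCR2 draws neutrophils toward CXCL1 and CXCL2, and CXCR4 binds CXCL12. CCRL2 is an atypical member that binds the chemoattractant chemerin without signalling itself and presents it to neighbouring cells.

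Among the 6 genes, 4 lie on chromosome 9 of GRCm38, as annotated by GENCODE M21. Cx3cr1 (ENSMUSG00000052336) spans chr9:119901616-120069879 on the minus strand and shares that strand with parts of Gorasp1, Csrnp1 and Xirp1, so that its reads could be divided with those genes. Ccr1 (ENSMUSG00000025804, chr9:123962124-123968692, minus strand) begins 3.89 Mb beyond it. Ccr2 (ENSMUSG00000049103, chr9:124101950-124113557, plus strand) follows Ccr1 after 133 kb. Ccrl2 (ENSMUSG00000043953, chr9:111054486-111057519, minus strand) lies 8.84 Mb away on the other side. Cxcr2 (ENSMUSG00000026180, chr1:74153989-74161246) and Cxcr4 (ENSMUSG00000045382, chr1:128588199-128592293) are on chromosome 1.

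Upstream sequences are shown for the 3 members with measurable levels in microglia, because 2 of them, Cx3cr1 and Ccr1, were lower together in the cKO library while Ccrl2 followed another pattern over microglial states. Each is the 250 bases before the RefSeq transcription start (GRCm38.p6, minus strand, 5′ to 3′), at chr9:120068297-120068546 for Cx3cr1, chr9:123968693-123968942 for Ccr1 and chr9:111057519-111057768 for Ccrl2. Capitals mark motif matches.
Cx3cr1: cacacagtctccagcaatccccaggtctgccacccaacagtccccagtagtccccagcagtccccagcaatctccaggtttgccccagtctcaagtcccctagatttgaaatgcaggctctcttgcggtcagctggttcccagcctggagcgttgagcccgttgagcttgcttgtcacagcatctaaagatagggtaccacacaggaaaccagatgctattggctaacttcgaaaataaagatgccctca
Ccr1: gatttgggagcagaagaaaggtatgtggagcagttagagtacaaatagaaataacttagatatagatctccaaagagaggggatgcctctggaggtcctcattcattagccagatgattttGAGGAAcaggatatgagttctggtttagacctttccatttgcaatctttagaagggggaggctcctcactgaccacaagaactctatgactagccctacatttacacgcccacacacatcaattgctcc
Ccrl2: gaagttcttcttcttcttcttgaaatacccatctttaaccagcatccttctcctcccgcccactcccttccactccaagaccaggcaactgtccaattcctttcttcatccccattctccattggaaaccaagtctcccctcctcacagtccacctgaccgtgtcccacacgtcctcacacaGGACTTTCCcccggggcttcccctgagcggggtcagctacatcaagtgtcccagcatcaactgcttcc

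Motifs were chosen after the letters had been seen, and both strands were searched for 3 of them: the PU.1 core GAGGAA, the kappa-B type site GGACTTTCC and the AP-1 site TGANTCA. PU.1 is the lineage factor of myeloid cells, and kappa-B sites are bound by NF-kB. The Ccr1 window held GAGGAA, starting 129 bases before the start, and 23.3% of 32851 windows of the same length hold that motif. The Ccrl2 window held GGACTTTCC, starting 68 bases before the start, and 0.283% of windows hold it. None of the 3 motifs was found in the Cx3cr1 window, whose start lies 1583 bases from the outermost GENCODE start. TGANTCA is in 6.75% of windows and was in none of the 3 shown. A match says only that these letters are there.

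The fl/fl library held 3089 barcodes and 37476201 unique molecular identifiers (UMIs, each standing for 1 captured transcript), and the cKO library 2607 barcodes and 32896996 UMIs; 2 barcode sequences occurred in both. After filtering, 2826 and 2301 cells fell into 19 clusters that were made without any chemokine receptor gene. Of these, 10 clusters were microglia-like, with 2476 fl/fl and 2013 cKO cells (87.6% and 87.5%) at median depths of 10193.5 and 12015 UMIs. Levels are counts per 1000000 UMIs of the summed cells (CPM), and log2 ratios are of cKO over fl/fl after adding 1 CPM. The targeted gene Hk2 measured 166 CPM in microglia-like cells of the fl/fl library and 43.5 CPM in cKO ones, though which exons are floxed is not given and a 3′ tag may lie outside them.

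In microglia-like cells, the fractalkine receptor Cx3cr1 and the CCL3 and CCL5 receptor Ccr1 stood in the cKO library at 51.9% and 52.3% of their fl/fl levels, and the atypical receptor Ccrl2 had overlapping intervals in the pooled cells. Cx3cr1 measured 1303 CPM (1291 to 1316) in fl/fl and 677 CPM (667 to 687) in cKO cells. The log2 ratio was -0.94 (-0.97 to -0.92), and the intervals lay far apart. Ccr1 measured 55.5 CPM (53.0 to 58.1; 1821 UMIs) in fl/fl and 29.1 CPM (27.1 to 31.1; 828 UMIs) in cKO cells. Its log2 ratio was -0.91 (-1.05 to -0.81). Ccrl2 measured 180 CPM (175 to 185) and 182 CPM (177 to 187), a log2 ratio of 0.01 (-0.04 to 0.07).

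The other 3 receptors were at the edge of detection in microglia-like cells. Ccr2, the monocyte receptor, gave 89 and 68 UMIs, or 2.71 CPM (2.18 to 3.34) in fl/fl and 2.39 CPM (1.85 to 3.03) in cKO cells. Cxcr4 gave 63 and 53 UMIs, or 1.92 and 1.86 CPM. Cxcr2, the neutrophil receptor, gave 18 and 16 UMIs, or 0.549 and 0.562 CPM. For each of these 3 the interval of the ratio included 0. For Ccr2, monocyte RNA in the proportion of the summed monocyte markers of these cells would bring 1.44 CPM to fl/fl and 6.25 CPM to cKO cells. The cKO estimate is above the measured 2.39 CPM, so these markers may not stand for monocyte RNA there. Nothing is read from the estimate.

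Of the 6 members, 3 reached a mean of 10 CPM, the level from which a gene counted as measured here, and 2 of those 3 were lower in cKO cells by at least 1.5-fold. Among all 7813 measured genes, 22 (0.282%) were lower and 101 (1.29%) higher by that factor, and the median log2 ratio was -0.04. Counting from the lowest ratio upward, Cx3cr1 came 6th and Ccr1 7th. Since the genotype contrast served to choose the members, nothing is read from this count.

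**Figure D1:**
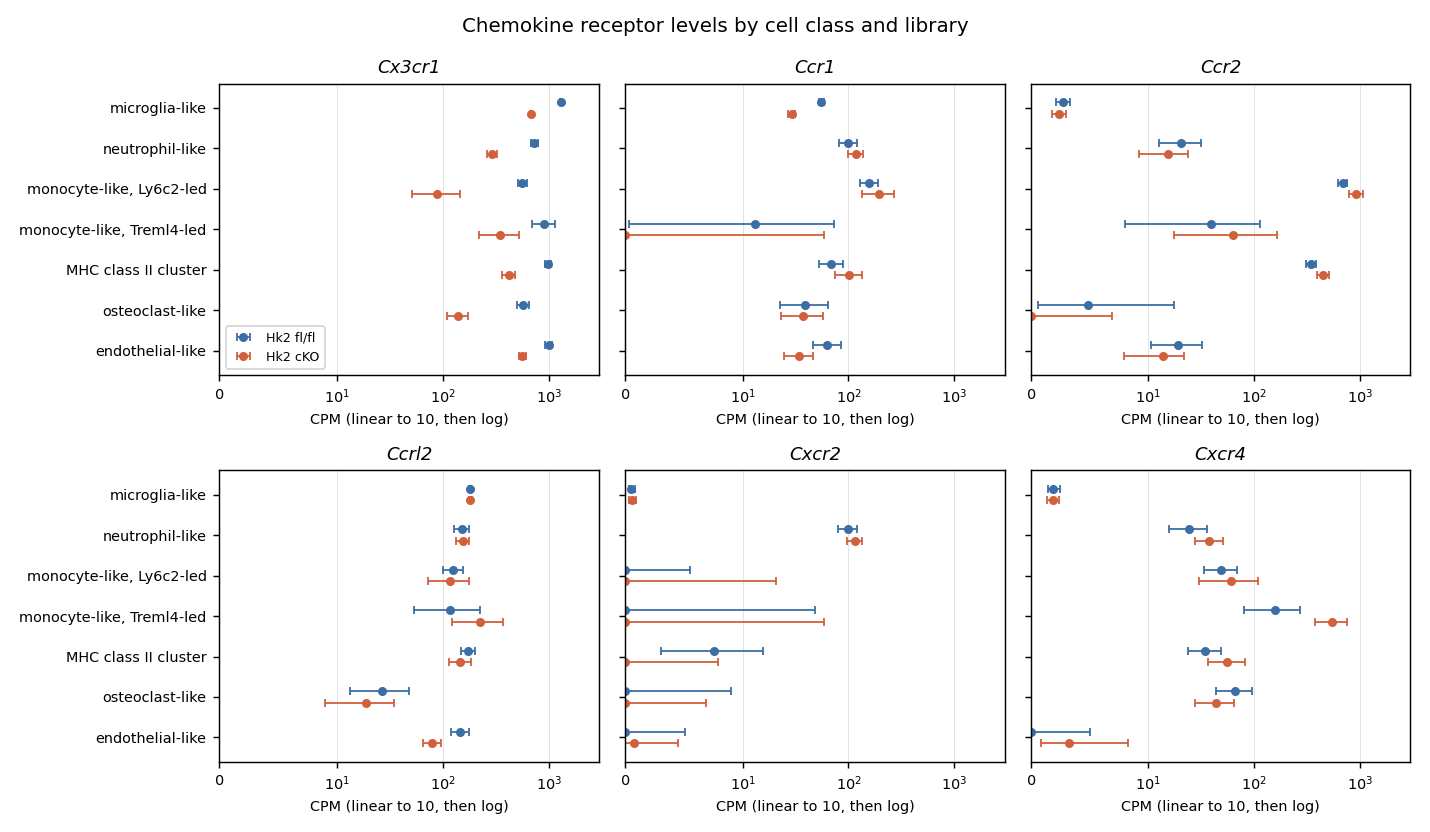
Level of each receptor (x axis, CPM, linear to 10 and logarithmic above) by cell class (y axis) in the fl/fl library (blue) and the cKO library (orange), with 95% counting intervals as bars. Cx3cr1 was lower in the cKO library in every class drawn, whereas Ccr1 in neutrophil-like cells stood at 99.8 and 118 CPM with overlapping intervals.

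Counts per cell were compared after every cell was thinned to 5000 UMIs, which left out the 220 fl/fl and 180 cKO microglia-like cells that were shallower. Cx3cr1 then had a median of 6 UMIs per fl/fl cell and 3 per cKO cell, and the range from the 10th to the 90th percentile was 2 to 11 and 0 to 7. Its distribution was moved downward as a whole: 1.99% of fl/fl and 10.6% of cKO cells held no Cx3cr1 UMI, and 86.4% and 55.9% held at least 3. Beside it, the microglial gene P2ry12 had a mean of 3.18 and 3.17 UMIs per cell, though its log2 ratio by cluster ran from -0.34 in cluster 7 to 0.35 in cluster 5.

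Ccr1 was found in few cells at this depth. A Ccr1 UMI was present in 16.2% of fl/fl cells (14.7 to 17.8) and in 9.38% of cKO cells, and without thinning in 26.9% (25.1 to 28.7) and 16.5% (14.9 to 18.2). Free RNA is a limit to such shares: the neutrophil gene S100a8 had 0 UMIs in 92.8% and 94.5% of the same thinned cells. Neutrophil RNA in the proportion of the summed neutrophil markers of microglia-like cells would bring 0.0185 and 0.0272 CPM of Ccr1, beside its measured 55.5 and 29.1 CPM. Ccrl2 UMIs were seen in 43.7% of fl/fl and 39.1% of cKO cells after thinning, with means of 0.891 and 0.807 UMIs per cell.

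Shares of thinned cells holding both receptors of a pair were set beside the product of the single shares. Cx3cr1 and Ccr1 UMIs shared 16.1% of fl/fl cells, beside a product of 15.9%, and 8.57% of cKO cells, beside 8.39%. For Cx3cr1 this nearness was largely fixed in advance, as only 1.99% of fl/fl and 10.6% of cKO cells held none. Ccr1 was in 16.4% of fl/fl cells with Cx3cr1 and in 6.67% of the 45 without. In cKO cells it was in 9.58% with Cx3cr1 and in 7.73% of the 194 without. For Ccrl2 these shares were 44.1% and 24.4% in fl/fl and 39.5% and 35.6% in cKO cells. The differences were not tested. Ccr1 and Ccrl2 shared 7.85% of fl/fl cells beside a product of 7.08%, and 3.55% of cKO cells beside 3.67%. Only 2 cells in each library held both Ccr1 and Ccr2.

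**Figure D2:**
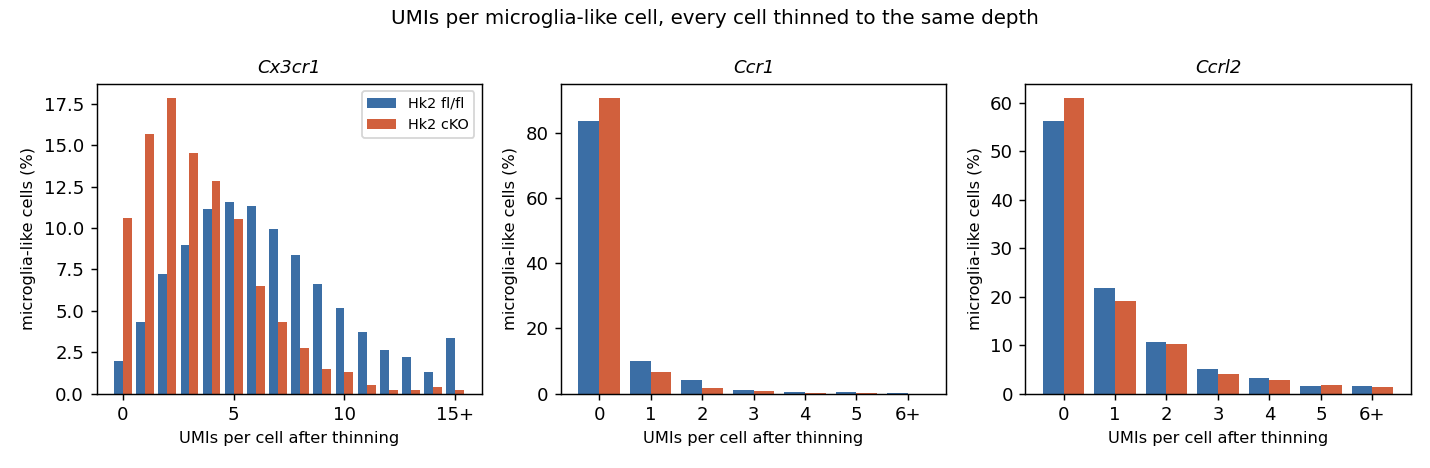
Share of microglia-like cells (y axis, percent) by UMIs of Cx3cr1, Ccr1 and Ccrl2 per cell after thinning to equal depth (x axis, last bar open-ended), 2256 fl/fl cells in blue and 1833 cKO cells in orange. The Cx3cr1 bars peak at lower counts in the cKO library, with medians of 6 and 3 UMIs, and most cells hold no Ccr1 UMI in either library.

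Cx3cr1 was lower in the cKO library in each of the 10 microglia-like clusters, every interval lying below 0, with log2 ratios from -1.09 to -0.62. Its highest level was in cluster 8, led by Vaultrc5, mitochondrial ribosomal RNA and Apoe, at 1783 CPM (1711 to 1858) in fl/fl and 1116 CPM (1054 to 1180) in cKO cells. Cluster 3, led by Rrad, Otud1 and Klf2, followed at 1542 and 812 CPM, and cluster 4, with Fos and Fosb among its leading genes, at 1464 and 808 CPM. The intervals of clusters 3 and 4 overlapped in both libraries. The lowest level was in the shallow cluster 0, led by Cdk1 and Ube2c, at 654 and 307 CPM, while the summed microglial markers there were at 74.6% and 78.0% of their level over all microglia-like cells. Cluster 6, led by Ch25h, Ccl7 and Cxcl2, was next lowest in the cKO library at 572 CPM and stood at 1059 CPM in the fl/fl library.

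Ccr1 was lower in the cKO library in all 10 clusters as well, but by unequal amounts, with intervals below 0 in 8 of them. In fl/fl cells it was highest in clusters 8, 6 and 5, at 82.5 (67.4 to 99.8), 82.2 (70.2 to 95.8) and 79.9 (72.4 to 87.9) CPM, with overlapping intervals; clusters 5 and 6 are both led by inflammatory genes such as Il1b and Ccl7. In cKO cells cluster 8 alone kept a level of that size, 75.9 CPM (60.4 to 94.2), whereas cluster 6 stood at 36.7 CPM (31.6 to 42.4) and cluster 5 at 35.1 CPM (27.9 to 43.6). The ratio was therefore close to even in cluster 8, at a log2 of -0.12 (-0.55 to 0.31). It was lowest in cluster 3, at 42.2 CPM (35.5 to 49.7) against 11.9 CPM (8.70 to 15.8), a log2 ratio of -1.74 (-2.34 to -1.34). That interval overlapped those of cluster 2, at -1.52 (-2.10 to -1.09), and cluster 0, at -1.27 (-1.87 to -0.77), among others. In the interferon-response cluster 12, led by Ifit3 and Rsad2, Ccr1 was 40.4 against 32.4 CPM, with a ratio interval that included 0. The difference in ratio between clusters 3 and 8 was not tested.

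Ccrl2 spanned a wider range over the clusters than Cx3cr1 and Ccr1. Its highest cluster stood 17.5-fold above its lowest in fl/fl cells and 52.3-fold in cKO cells, beside 2.73-fold and 3.63-fold for Cx3cr1 and 2.04-fold and 6.39-fold for Ccr1. The highest levels were in the inflammatory clusters: cluster 6 had 345 CPM (320 to 372) in fl/fl and 260 CPM (246 to 274) in cKO cells, and cluster 5 had 297 CPM (283 to 313) and 436 CPM (409 to 464). The order of these 2 clusters was thus turned between the libraries. Cluster 12 followed at 271 CPM (232 to 314), overlapping cluster 5, in fl/fl and 219 CPM (205 to 235) in cKO cells. Cluster 0, with 19.7 and 17.2 CPM, and cluster 8, with 31.4 and 8.33 CPM, were lowest. Within clusters Ccrl2 was lower in the cKO library in 8 of 10, with 6 intervals below 0, and higher in clusters 5 and 7 with intervals above 0.

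The 2 libraries also differed in how their cells fell into these clusters. Cluster 6 held 107 fl/fl and 224 cKO cells and cluster 12 held 51 and 269, both with high Ccrl2, whereas cluster 2, led by Adamts1 and Kcnq1ot1 and with 151 and 129 CPM of Ccrl2, held 433 and 191. Others ran the other way: cluster 5, high in Ccrl2, held 374 fl/fl and 162 cKO cells, and cluster 0, low in it, held 179 and 313. The part of this make-up in the pooled Ccrl2 level was not tested. When the 10 clusters were weighted equally the mean log2 ratio of Ccrl2 was -0.29, against -0.86 for Cx3cr1 and -0.93 for Ccr1. Cluster 8 had the lowest Ccrl2 ratio in that mean, -1.80 on 40 and 9 UMIs, and the median over the 10 clusters was -0.24.

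**Figure D3:**
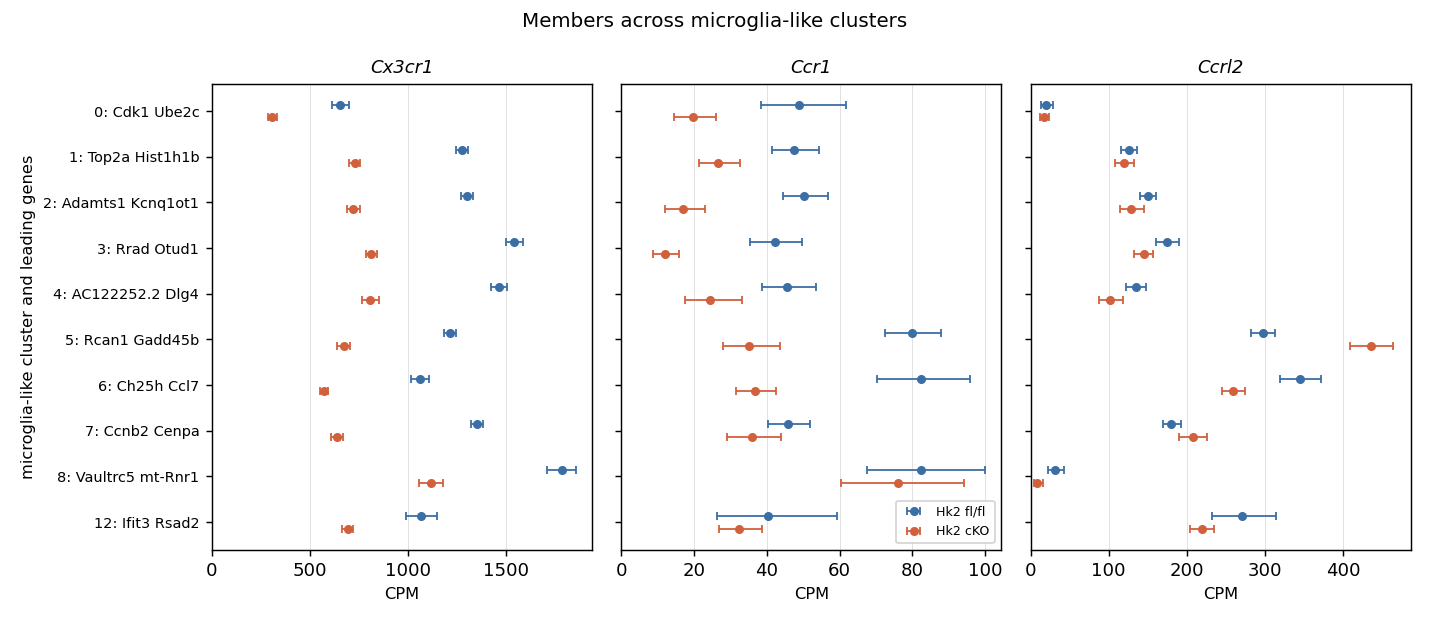
Level of Cx3cr1, Ccr1 and Ccrl2 (x axis, CPM) in the 10 microglia-like clusters (y axis, number and leading genes), fl/fl in blue and cKO in orange, with 95% counting intervals. Cx3cr1 is lower in cKO cells in every cluster, Ccr1 is nearly even in cluster 8, and Ccrl2 is higher in cKO cells in clusters 5 and 7.

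Between cell-cycle states Cx3cr1 and Ccr1 differed less than between the libraries. Among thinned cells, Cx3cr1 measured 1360 CPM (1330 to 1390) in fl/fl cells with fewer than 3 of 12 S-phase and fewer than 3 of 12 G2/M genes, and 1208 CPM (1175 to 1243) in G2/M cells. In cKO cells the corresponding levels were 733 (710 to 756) and 586 CPM (557 to 616). Ccrl2 was lower in G2/M cells too, at 213 CPM against 137 CPM in fl/fl and 188 against 113 CPM in cKO cells. Ccr1 was 53.3 and 49.1 CPM in fl/fl and 28.4 and 24.3 CPM in cKO cells, with overlapping intervals within each library.

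Genes with the most similar course were sought over 20 points, 1 for each library and microglia-like cluster; the points share library and depth, and the coefficients are Pearson correlations of log2 levels given as a description. Nearest to Cx3cr1 were Hk2 (0.93), Cd44 (0.84), Atxn7l1 (0.81), Zfp277 (0.80) and Zfp398 (0.79). Both Cx3cr1 and the deleted Hk2 differ between the genotypes. Within the libraries the coefficient of the pair was 0.78 in fl/fl and 0.94 in cKO. The shallow cluster 0 was lowest for both genes in both libraries, with Hk2 at 81.6 and 4.51 CPM and Cx3cr1 at 654 and 307 CPM. How far the coefficients rest on that cluster was not tested. Nearest to Ccr1 were Itga4 (0.80), Crip1 (0.74), Alkbh7 (0.73), Dab2 (0.72) and Pctp (0.71), with values within the fl/fl library between 0.34 and 0.67. Nearest to Ccrl2 were Maff (0.97), Nr4a1 (0.97), Edn1 (0.96), Phlda1 (0.96) and Gadd45b (0.95), all above 0.93 within each library. Maff and Nr4a1 encode stimulus-induced transcription factors and Gadd45b a stress-response protein. Between Cx3cr1 and Ccr1 the coefficient within libraries was 0.12 in fl/fl and 0.34 in cKO.

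Outside microglia, Ccr2 was highest in monocyte-like and MHC class II cells, Cxcr2 in neutrophil-like cells and Cxcr4 in the Treml4-led monocyte-like cells. In the monocyte-like cluster led by Plac8 and Ly6c2, Ccr2 measured 685 CPM (624 to 751) in 64 fl/fl and 926 CPM (791 to 1078) in 21 cKO cells. The intervals did not overlap. Of these cells, 93.8% and 100% held a Ccr2 UMI. The cluster led by MHC class II genes and Cd209a came next, at 344 CPM (307 to 384) in 54 fl/fl and 448 CPM (389 to 513) in 35 cKO cells, again without overlap and with the higher value in the cKO library. In cells without a UMI of the microglial genes P2ry12, Tmem119, Siglech or Fcrls, the lower value was in the cKO library. In such monocyte-like cells, Ccr2 was at 795 CPM (689 to 913) in 43 fl/fl and 624 CPM (518 to 744) in 29 cKO cells. The log2 ratio was -0.35 (-0.69 to -0.019). Unlike the value above, this sum also takes in the second, Treml4-led cluster. The share of each cluster in it is not given, so no direction within the Ly6c2-led cluster can be read from it. In such MHC class II cells, Ccr2 was at 667 CPM (514 to 850) in 13 fl/fl and 360 CPM (271 to 468) in 16 cKO cells. That log2 ratio was -0.89 (-1.44 to -0.35). Over all cells of the Ly6c2-led and MHC class II clusters, those microglial markers stood at 36.5% and 47.6% of their microglial level in fl/fl and at 0.806% and 31.5% in cKO cells, and their part in the Ccr2 values was not tested. The second monocyte-like cluster, led by Ear2, Ace and Treml4, gave 3 and 4 Ccr2 UMIs in 14 and 13 cells. Neutrophil-like cells had 20.5 and 15.3 CPM of Ccr2, and there the summed monocyte markers would bring more, 168 and 86.4 CPM. The monocyte-list genes Ly6c2, Chil3 and Hp were at least 4-fold above the rest in the neutrophil-like cluster too. Such markers may therefore not stand for monocyte RNA there, and nothing is read from that estimate.

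Cxcr2 was found in neutrophil-like cells, at 98.8 CPM (80.5 to 120) in 83 fl/fl and 114 CPM (96.4 to 135) in 89 cKO cells. The intervals overlapped, as they did in cells without the microglial markers, at 223 (161 to 301) and 178 CPM (143 to 220), where the lower value was in the cKO library. It gave no UMI in either monocyte-like cluster or in osteoclast-like cells, where 3 counts would be 4.47 to 47.7 CPM, and it gave 7 fl/fl UMIs in the MHC class II cluster. Cxcr4 was spread over several classes and was highest in the Treml4-led monocyte-like cells, with 12 UMIs and 156 CPM (80.6 to 273) in fl/fl and 34 UMIs and 540 CPM (374 to 755) in cKO cells. With 14 and 13 cells, this rests on few cells. Osteoclast-like cells, led by Acp5 and Ctsk, had 66.0 and 43.2 CPM of Cxcr4, and neutrophil-like cells 24.5 (15.8 to 36.1) and 37.9 CPM (27.8 to 50.4), with overlapping intervals in both classes. The Ly6c2-led monocyte-like cluster had 49.2 and 61.0 CPM and the MHC class II cluster 34.5 and 56.0 CPM, likewise overlapping. Without the microglial markers, monocyte-like cells of both clusters together had 79.1 (48.3 to 122) and 203 CPM (145 to 276) of Cxcr4, higher in the cKO library. That sum mixes Treml4-led and Ly6c2-led cells in shares not given, so nothing is read from it for either cluster alone.

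In the other myeloid clusters with more than a few Ccr1 UMIs, osteoclast-like cells aside, Ccr1 values were higher in the cKO library. In the Ly6c2-led monocyte-like cluster it measured 158 CPM (129 to 191) in fl/fl and 194 CPM (135 to 270) in cKO cells, and in neutrophil-like cells 99.8 (81.3 to 121) and 118 CPM (99.3 to 138). In the MHC class II cluster it was 69.0 (53.1 to 88.1) and 101 CPM (74.3 to 134). Within each of these 3 clusters the intervals overlapped. The summed microglial markers there stood at 36.5%, 47.6% and 47.6% of their microglial level in fl/fl and at 0.806%, 43.6% and 31.5% in cKO cells, so the cells compared differ in microglial RNA. Restricted to cells without a UMI of P2ry12, Tmem119, Siglech or Fcrls, Ccr1 was at 223 CPM (161 to 301) in 34 fl/fl and 174 CPM (139 to 216) in 57 cKO neutrophil-like cells. In such monocyte-like cells of both clusters together it was at 178 (130 to 238) and 122 CPM (78.0 to 181). In such MHC class II cells it was at 154 (86.1 to 254) and 71.9 CPM (35.9 to 129), on 15 and 11 UMIs. Intervals again overlapped, now with the lower value in the cKO library in all 3. The monocyte-like sum also takes in the Treml4-led cluster, which gave 1 fl/fl and 0 cKO Ccr1 UMIs. The share of each cluster in that sum is not given, so no direction within the Ly6c2-led cluster can be read from it. In endothelial-like cells, where microglial markers stood at 68.5% and 66.0%, Ccr1 was 63.3 and 33.8 CPM, and it gave no UMI in the 7 and 19 endothelial-like cells without those markers, which allows up to 133 and 36.9 CPM at 3 counts.

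In neutrophil-like cells Cx3cr1 measured 733 and 291 CPM, beside 620 and 295 CPM that the microglial markers would bring, and it gave 1 UMI over 34 fl/fl and 0 UMIs over 57 cKO neutrophil-like cells without those markers, where 3 counts would be 6.22 CPM in the cKO sum. Monocyte-like cells without those markers did hold it, at 190 CPM (140 to 252) in 43 fl/fl and 152 CPM (103 to 217) in 29 cKO cells. Those intervals overlapped. In the MHC class II cells without the markers it was 277 (182 to 403) and 137 CPM (85.0 to 210) in 13 and 16 cells; these intervals overlapped, while that of their log2 ratio, -1.91 to -0.14, lay below 0.

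Ccrl2 was found in most classes outside microglia. In neutrophil-like cells it measured 152 CPM (129 to 177) in fl/fl and 155 CPM (134 to 178) in cKO cells, above the 85.6 and 79.3 CPM that the microglial markers would bring. Neutrophil-like cells without those markers held it at 213 (153 to 289) and 160 CPM (126 to 200), with overlapping intervals. In the Ly6c2-led monocyte-like cluster it stood at 125 and 116 CPM and in the MHC class II cluster at 174 and 146 CPM, overlapping in both. Without the markers, monocyte-like cells of both clusters had 91.0 (57.7 to 137) and 152 CPM (103 to 217), and MHC class II cells 256 (166 to 378) and 131 CPM (79.9 to 202). Both pairs overlapped, but they ran in opposite directions, and in MHC class II cells the interval of the log2 ratio, -1.90 to -0.065, lay below 0. The monocyte-like sum mixes both clusters in shares not given, so no direction within either is read from it. Endothelial-like cells differed, with 146 CPM (119 to 176) in fl/fl and 79.8 CPM (64.8 to 97.1) in cKO cells, but the markers alone would bring 123 and 120 CPM there. The lowest class among those drawn was the osteoclast-like one, at 26.9 and 18.8 CPM.

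Positions were compared because the driver gene Cx3cr1 and Ccr1 lie on 1 chromosome. Of 41 other measured genes within 5 Mb of Cx3cr1, 1 (2.44%) was lower by 1.5-fold, namely Ccr1, and 1 was higher, 2010315B03Rik, and the median log2 ratio was -0.0049. Over all measured genes 0.282% were lower and 1.29% higher by that factor. Ccr1 was itself chosen for its lower level in this contrast, so nothing is read from the count. Within 2 Mb none of 20 genes passed 1.5-fold in either direction. Ccrl2, on the other side of Cx3cr1, was even.

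**Figure D4:**
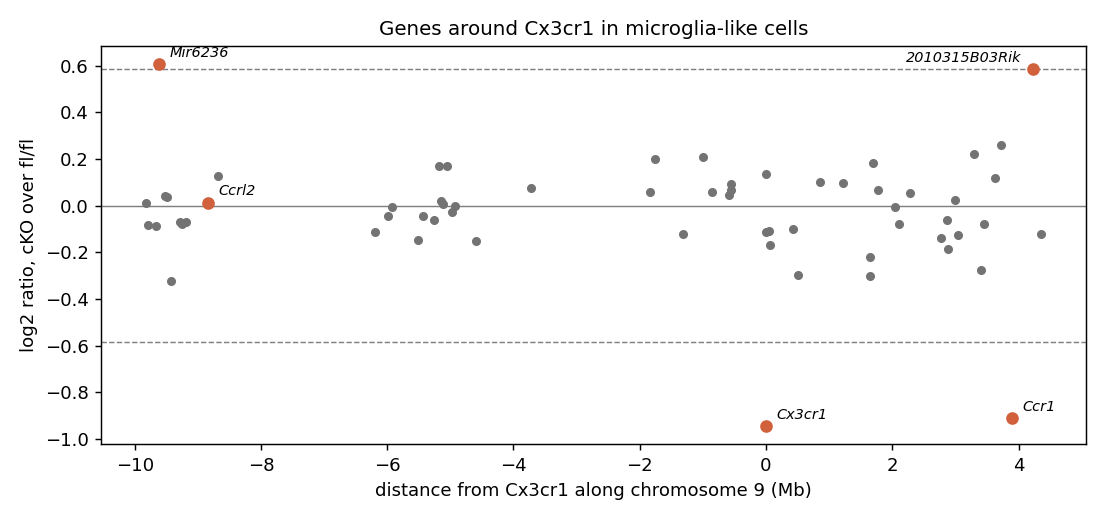
Log2 ratio of cKO over fl/fl level in microglia-like cells (y axis) by distance from Cx3cr1 (x axis, Mb) for the measured genes reported here within 10 Mb, with dashed lines at 1.5-fold and named genes in orange. Cx3cr1 and Ccr1 stand alone below the lower line, at -0.94 and -0.91.

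The libraries also differ in a pair of mitochondrial-type genes, which splits the cells. mt-Nd3, a mitochondrial respiratory chain gene, was seen without the chromosome 1 pseudogene Gm28438 in 1207 fl/fl but only 4 cKO microglia-like cells, and Gm28438 was seen without mt-Nd3 in 494 fl/fl and 1711 cKO cells. These kinds were made after the values of the pair had been seen, and what sets them apart was not tested. Cx3cr1 measured 1272 CPM (1255 to 1289) in fl/fl cells with mt-Nd3 alone, 1301 CPM (1272 to 1330) in fl/fl cells with Gm28438 alone and 674 CPM (664 to 684) in cKO cells with Gm28438 alone. Ccr1 measured 55.3, 61.6 and 29.1 CPM in the same order, and Ccrl2 188, 171 and 183 CPM. For Cx3cr1 and Ccr1 the fl/fl kinds overlapped in their intervals and the cKO level was as low against either.

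**Figure D5:**
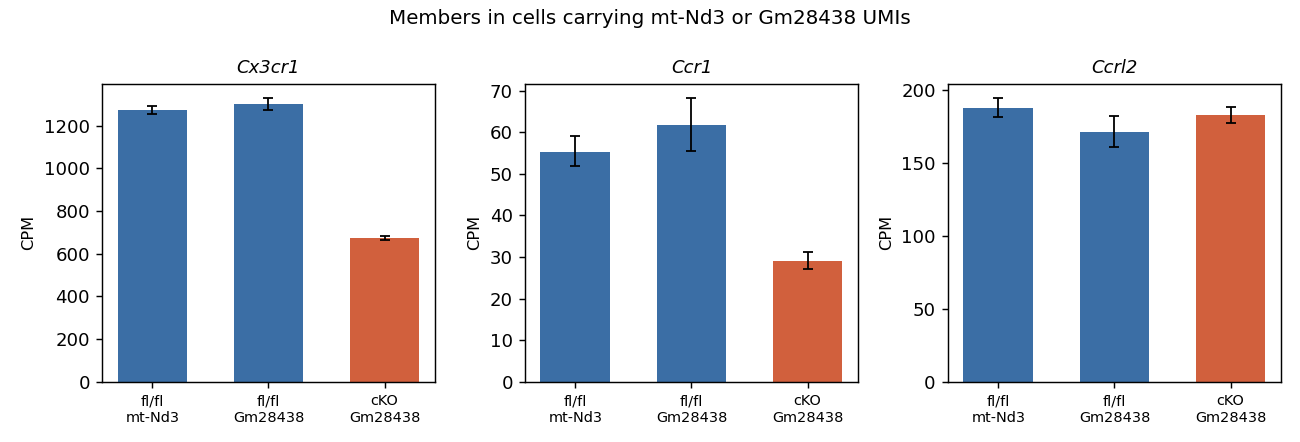
Level of Cx3cr1, Ccr1 and Ccrl2 (y axis, CPM, bars from 0 with 95% counting intervals) in fl/fl microglia-like cells with mt-Nd3 alone, fl/fl cells with Gm28438 alone and cKO cells with Gm28438 alone. Both fl/fl bars of Cx3cr1 (1272 and 1301) and of Ccr1 (55.3 and 61.6) stand well above the cKO bar.

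Several ligands of these receptors were higher in cKO microglia-like cells. Of 17 genes on the ligand list 9 were measured, 6 of them higher and 3 lower. Their median log2 ratio was 0.48, beside -0.04 over all measured genes. Of the 9, 4 passed 1.5-fold, all higher, beside 1.29% higher and 0.282% lower over all measured genes. Those 4 were the CCR2 ligands Ccl2 (1442 and 2381 CPM), Ccl7 (90.3 and 151 CPM) and Ccl12 (673 and 1223 CPM) and the chemokine gene Ccl4 (2276 and 3651 CPM). Ccl4 is on the list but is not assigned here to a particular one of the 6 receptors. Ccl3, a ligand of Ccr1, measured 1524 CPM (1511 to 1537) and 2075 CPM (2059 to 2092). The Cxcr2 ligand Cxcl2 was lower, at 862 and 709 CPM. Fractalkine, Cx3cl1, gave 8 and 13 UMIs, and Cxcl12 was at 9.30 and 8.42 CPM in microglia-like cells.

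Genes that carry the receptor signal differed little, like most measured genes. Of 33 such genes 30 were measured, 8 higher and 22 lower, none by 1.5-fold. Their median log2 ratio was -0.07, beside -0.04 over all measured genes. Of all measured genes only 0.282% were lower and 1.29% higher by that factor, so nothing particular to these 30 is read from the count. Gnai2, a Gi protein subunit, measured 1325 and 1202 CPM, Rgs10, which ends Gi signalling, 984 and 926 CPM, and Gng5, a G protein gamma subunit, 903 and 950 CPM. Outside the 6 members, the chemerin receptor gene Cmklr1 was measured in microglia-like cells at 53.6 and 54.3 CPM. Ccr7 reached 33.4 CPM in the fl/fl MHC class II cluster, and Ackr3, an atypical CXCL12 receptor, gave 8 and 24 UMIs in endothelial-like cells. Gpr35, also on the list of other receptors, was at 6.89 and 7.69 CPM in microglia-like cells. It reached 46.2 CPM (31.4 to 65.6) in the 64 fl/fl cells of the Ly6c2-led monocyte-like cluster.

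Other lists describe the states in which the receptors were measured. All 16 interferon-response genes were measured and higher in cKO microglia-like cells by at least 1.5-fold, with a median log2 ratio of 1.52. Over all measured genes 1.29% were higher and 0.282% lower by that factor, with a median of -0.04. The 12 immediate early genes had a median of -0.07 and none passed 1.5-fold, and 9 damage-associated genes had a median of 0.29 with 1 higher by 1.5-fold. Of the 12 G2/M genes 11 were lower, with a median of -0.19, and of 11 measured S-phase genes 8 were lower, with a median of -0.08; none passed 1.5-fold. Whether these shifts have a part in the receptor values was not tested.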

How the data were processed

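The authors deposited raw UMI counts for every gene and barcode of 2 droplet 3′ RNA libraries, 1 of each genotype; bcl2fastq and Cell Ranger 3.1.0 with GRCm38 are named per the submitters' processing notes. No annotation is named there or in the labels, but each of the 55450 identifiers and symbols occurs in GENCODE M21, the source of positions. Groups are the genotype labels. The members, gene lists and motifs were chosen with earlier results of these data known.

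A barcode was kept with 500 genes or more and no more than 10% mitochondrial UMIs, which left 91.5% (fl/fl) and 88.3% (cKO). Scanpy 1.11.5 clustered the cells (2000 variable genes, 30 components, 15 neighbours, Leiden resolution 0.8, igraph 0.11.9, seed 1) without any chemokine receptor gene. To be named, a cluster needed 3 markers of a class, each present in 25% of its cells and 4-fold above the rest. Microglia-like clusters had no such class and detected 16 microglial markers at an average of 80% or more. Clusters under 1/3 of their library's median depth, with no marker of the name in their 10 leading genes, got none. Scrublet marked only 2 and 1 cells and so did not work here; doublets remain, and an alternative left out the 64 and 42 highest scores.

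Counts were summed per library and cell group, divided by the sum's total to give CPM, and compared as log2 ratios with 1 CPM added, so differences of low genes are understated. Measured genes average 10 CPM or more, and ratios of 1.5-fold or more were counted. What RNA of another class would bring is the member's level in that class times the ratio of summed class markers. A symbol with several identifiers was read from the one with most counts. Genes named are the members, those of the receptor, ligand and signalling lists past 1.5-fold or among the 3 most abundant, other chemokine receptors reaching 10 CPM in a class of 50 cells or more, genes within 5 Mb of Cx3cr1 past 1.5-fold, and the 5 genes most similar to each measured member. Of these, 1 gene is not reported here. Leading genes of clusters, a few control genes, Ccl3, Cxcl2 and the lowest ligands were added after their values were seen. All 6 members are in the RefSeq promoter table (GRCm38.p6). The sums and intervals were tested on simulated data. No test between genotypes was run. Alternatives were other totals, scaling by TMM (edgeR 4.0.16, run in R 4.3.3), per-cell means, thinned sums, filters, resolutions and choices of cells. The scripts ran in Python 3.11.15 using numpy 2.4.6, scipy 1.17.1, pandas 2.3.3 for tables and matplotlib 3.10.9 for plots.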

Additional observations from a re-analysis of the deposited data

Results flagged for a closer look

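Ccrl2, the atypical chemerin-binding receptor gene, stood higher in the cKO library in some microglia-like clusters and lower in others, with counting intervals off 0 on both sides. Its log2 ratio was 0.55 (0.44 to 0.67) in cluster 5, led by Rcan1, Gadd45b and Il1b, and 0.20 (0.05 to 0.35) in cluster 7, led by the mitotic genes Ccnb2 and Cenpa. The ratio was -1.80 (-3.14 to -0.85) in cluster 8, where it rests on 40 fl/fl and 9 cKO UMIs. In cluster 6, which shares Rcan1, Ccl7 and Il1b with cluster 5 among its leading genes, it was -0.41 (-0.55 to -0.28). The difference between clusters was not tested, since each genotype has 1 library.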

How the results depend on the processing

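Over 16 alternatives Cx3cr1 was lower in cKO microglia-like cells in each, with log2 ratios from -0.96 to -0.85, and Ccr1 in each, from -1.08 to -0.83; both passed 1.5-fold in all 16. Cx3cr1 left its counting interval at -0.91 with TMM scaling, -0.91 with barcodes of at least 200 genes, -0.90 at resolution 1.5, -0.90 in cells outside S and G2/M, -0.85 in cells without UMIs of 6 markers of other classes, -0.92 against fl/fl mt-Nd3 cells and -0.86 with clusters weighted equally. Ccr1 did so at -1.07 with per-cell means, -1.08 without the 6 markers and -1.06 between Gm28438 cells. Ccrl2 ranged from -0.29 to 0.092: -0.10 with per-cell means, -0.14 in thinned sums, 0.072 with barcodes of at least 200 genes, 0.078 without the highest doublet scores, -0.073 outside S and G2/M, 0.092 between Gm28438 cells and -0.29 with clusters weighted equally; it was lower in 5 of 16. Ccr2, Cxcr2 and Cxcr4 stayed inside their wide intervals in all 16. Genes lower by 1.5-fold numbered 35 in thinned sums, 14 with 5 CPM added and 86 without a filter (22 as reported), and those higher 205 without a filter (101). The cKO minus fl/fl share of cells with a UMI was -19.0 percentage points for Cx3cr1 at 2500 UMIs and -4.73 without thinning (-8.59 as reported), and -4.56 and -10.4 for Ccr1 (-6.84). Genes lower near Cx3cr1 numbered 0 within 2 Mb and, at 5 CPM, 2 within 5 Mb (Vill and Ccr1). The causes were not tested. No paired analysis was possible because each genotype has 1 library. Depth limits Ccr2, Cxcr2 and Cxcr4 in microglia-like cells, where 16 to 89 UMIs per library stand behind each value.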
